A study of Mus musculus with 2 samples.

Results

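The carbonic anhydrase genes of the mouse colon were described on 2 arrays, 1 of colon epithelial cells incubated with PBS, a buffered salt solution, and 1 of the same kind of cells incubated with MIF, read here as the cytokine macrophage migration inhibitory factor, for which CD74 is the surface receptor. The cells came from C57BL/6 mice aged 7 weeks, an inbred strain with no transgene named in the labels, and no other agent is given for either group. The dose and time of incubation, the isolation of the cells and the number or pooling of animals are not stated in the labels. The members were the genes whose single platform symbol is Car with a number and an optional letter, which gave 8 genes of 8721 named genes, on 11 of 15340 probe sets. A probe set is a group of short probes on an Affymetrix array that together give 1 signal. The mouse RefSeq gene table holds 16 genes named in this way, and the other 8 were not analysed here. With 1 array per group there is no spread between samples, so no test was made and no p-value is given.

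Carbonic anhydrases are zinc enzymes that turn carbon dioxide and water into bicarbonate and a proton. In the colon, this supplies the apical sodium-proton and chloride-bicarbonate exchangers with which surface cells absorb salt, and the bicarbonate that is secreted into the mucus. Car1, Car2, Car3 and Car13 are cytosolic enzymes. Car4 is tethered to the outer face of the membrane by a lipid anchor, and Car9 and Car12 are transmembrane enzymes whose catalytic domains also face outward. Car8 has lost catalytic activity and is known for binding the inositol trisphosphate receptor Itpr1.

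RefSeq windows of the GRCm38.p6 build were matched for 3 of the 8 members, which are the outward-facing Car4, Car9 and Car12. The DNA before their annotated starts is shown because Car9 and Car12 are known targets of hypoxia-inducible factor and can be set beside Car4. Car1, Car2, Car3, Car8 and Car13 were not matched. The windows cover the 250 bases before the start on the plus strand, at chr11:84957504-84957753, chr4:43506776-43507025 and chr9:66713436-66713685. Capitals mark matches, on either strand, to the hypoxia response core (ACGTG or GCGTG), AP-1 (TGAGTCA or TGACTCA), the TATA element (TATAAA) and the CDX element (TTTATG or TTTACG).
Car4: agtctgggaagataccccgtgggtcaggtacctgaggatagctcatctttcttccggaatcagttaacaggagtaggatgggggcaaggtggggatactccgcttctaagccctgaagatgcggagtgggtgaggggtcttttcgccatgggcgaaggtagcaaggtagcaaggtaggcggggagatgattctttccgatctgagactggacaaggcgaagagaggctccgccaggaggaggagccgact
Car9: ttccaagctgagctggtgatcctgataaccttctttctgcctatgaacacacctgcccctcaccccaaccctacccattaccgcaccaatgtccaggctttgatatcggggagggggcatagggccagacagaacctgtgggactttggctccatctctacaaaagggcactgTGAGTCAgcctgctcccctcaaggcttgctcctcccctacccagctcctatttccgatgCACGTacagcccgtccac
Car12: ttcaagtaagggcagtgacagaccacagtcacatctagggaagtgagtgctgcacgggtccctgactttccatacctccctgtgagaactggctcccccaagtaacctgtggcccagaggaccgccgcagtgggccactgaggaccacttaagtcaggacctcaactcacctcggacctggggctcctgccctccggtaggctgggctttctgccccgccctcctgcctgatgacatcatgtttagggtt
The Car9 window held a hypoxia response core on the opposite strand, starting 18 bases before the annotated start, and an AP-1 match starting 77 bases before it, and these matches did not overlap. A hypoxia response core occurred in 38.6% of all 32851 windows of this length and an AP-1 match in 4.46%. The TATA and CDX elements, present in 12.4% and 13.1% of all windows, matched none of the 3 shown, nor did any motif match in Car4 or Car12. A match describes the letters only.

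The median signal of all probe sets was 337 with PBS and 346 with MIF, which is 0.04 apart on the log2 scale. Signals below a floor of 232, the 40th percentile, were raised to it, and a gene below it on both arrays was not assessed. Where a gene had several probe sets, the brightest represented it. Differences are log2 signal with MIF minus that with PBS. Over the 1800 genes that had another probe set clear of the floor, they had an SD of 0.13 between probe sets of a gene, which measures error within these arrays and not between cell preparations. All 12 markers of colon epithelium in the list, such as Epcam and Cdh1, lay above the floor on both arrays, with a median difference of -0.04 that became 0.01 after quantile normalization and after a loess trend was removed. Red blood cells also carry much Car1 and Car2. The 3 erythroid markers in the table (of 13 listed) were under the floor on both arrays, with the globin gene Hba-a2 at 27.6 and 32.3 and Hbb-b2 at 40.7 and 63.6, and the summed signal of the list was 109.5 on each array.

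Most carbonic anhydrases had nearly equal signals in cells incubated with PBS or MIF. The exceptions in size were Car8, which was 1.46-fold higher on the MIF array, and Car4, which was 1.16-fold and 1.26-fold higher on its separate probe sets. Of the 8 genes, 7 were assessed and Car3 was under the floor on both arrays. At a threshold of 1.2-fold, a log2 difference of 0.26, 1 of the 7 was higher (Car8) and 0 were lower, against 6.82% and 6.29% of the 5837 genes assessed. At 1.5-fold the members' counts were 0 and 0, against 0.634% and 0.463% of genes. The log2 differences of the 7 members ran from -0.14 to 0.54 around a median of 0.12, and 5 were higher on the MIF array (6 with quantile normalization or with the loess trend removed). Over all assessed genes the median was -0.01 and 46.7% were higher. In these bulk samples, a change in the share of cells that express a gene and a change in RNA per cell cannot be told apart.

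**Figure D1:**
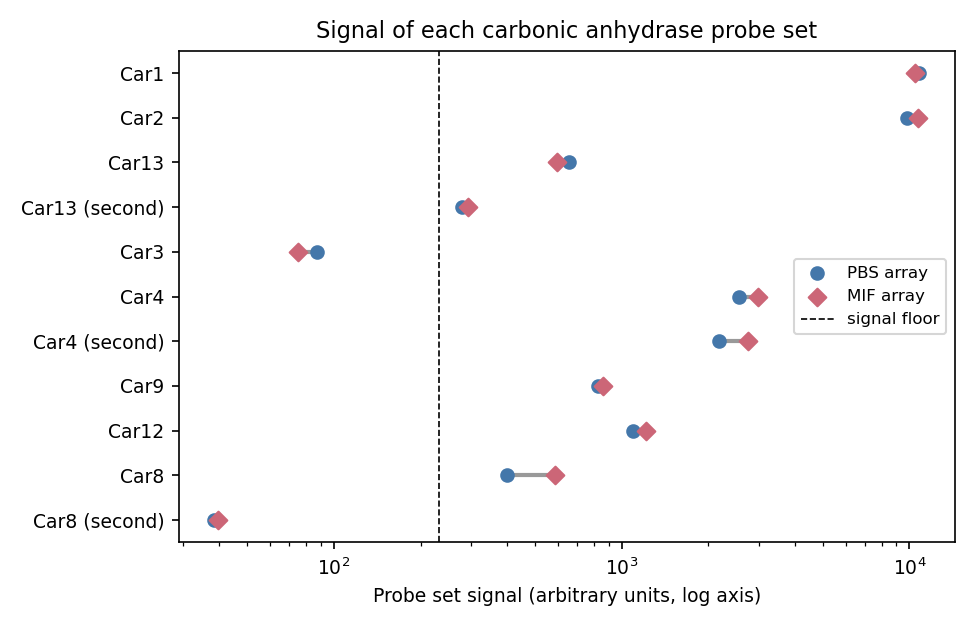
Signal of each of the 11 carbonic anhydrase probe sets (arbitrary units, log axis) on the PBS array (circles) and the MIF array (diamonds), with the floor of 232 as a dashed line and, for genes with several probe sets, the dimmer one marked as second. The pairs of points lie close together, apart from Car8 at 401 and 585 and the second Car4 probe set at 2176 and 2746. Car3 and the dimmer Car8 probe set lie below the floor on both arrays.

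Among the cytosolic enzymes, Car1, the isozyme by which surface colonocytes are often recognised, had a signal of 10837 with PBS and 10487 with MIF. This was a log2 difference of -0.05, less than the SD between probe sets, and its sign turned with quantile normalization (0.04) and with the loess trend removed (0.03). Car2, the fast and widely expressed isozyme, had signals of 9797 and 10683, a difference of 0.12, also within that SD. Its difference was 0.09 with median centring, 0.21 with quantile normalization and 0.20 with the loess trend removed. The other alternatives could not change it, since Car2 has a single probe set, far above the floor.

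Car13, a cytosolic isozyme found in colon among other tissues, had 2 probe sets that went opposite ways. The brighter had signals of 655 with PBS and 595 with MIF, a log2 difference of -0.14. The dimmer went from 278 to 292, a difference of 0.07, close to the floor of 232. No direction was therefore given to Car13. Car3, an isozyme of low activity known from skeletal muscle and fat, had signals of 87.2 and 75.3, under the floor on both arrays. The markers of fat and skeletal muscle in the table, Fabp4 and Acta1 (2 of 12 listed), were under the floor on both arrays as well.

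Car13, Car1, Car3 and Car2 follow each other on chromosome 3 with no other protein-coding gene between them in the RefSeq gene table. Their representative differences, in that order, were -0.14, -0.05, not assessed and 0.12. Each of the 3 assessed differences was within 1.2-fold, and those of Car1 and Car2 were within the SD between probe sets. The difference of Car2 exceeded that SD with quantile normalization (0.21) and with the loess trend removed (0.20).

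The outward-facing enzymes were higher on the MIF array in each of their probe sets, where 46.7% of all assessed genes were higher. Their log2 differences ran from 0.06 to 0.34. The smallest, of Car9, was within the SD between probe sets and was 0.02 with median centring. Car4, which is found on the brush border of colonocytes, had the largest difference of the outward-facing enzymes. Its brighter probe set had signals of 2558 with PBS and 2965 with MIF, a difference of 0.21. Its other probe set, which can detect further transcripts, had signals of 2176 and 2746, a difference of 0.34. Both exceeded the SD of 0.13 between probe sets, while only the second passed 1.2-fold.

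Car12, a basolateral enzyme in many epithelia, had signals of 1091 with PBS and 1216 with MIF, a log2 difference of 0.16. Car9, which is abundant in the stomach and in hypoxic tumours, went from 828 to 863, a difference of 0.06. Each had 1 probe set, and only the difference of Car12 exceeded the SD between probe sets. Of the genes assessed, 10.4% were at least as far towards MIF as Car4 was on its brighter probe set, 15.9% as far as Car12 and 32.3% as far as Car9.

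Car8, the member without catalytic activity, had the largest difference. Its brighter probe set had signals of 401 with PBS and 585 with MIF, a log2 difference of 0.54 (1.46-fold). Its other probe set was under the floor on both arrays, at 38.4 and 39.5, and so gave no second measurement. Of all assessed genes, 0.942% were at least as far towards MIF as Car8. Among the 1386 genes with a mean signal from 444 to 790, which include Car8, differences had an SD of 0.19, and 15 were at least as far. The difference was a log2 value of 0.23 with the floor at the 60th percentile, a signal of 498 that lay above the PBS value of Car8, so that value is a bound.

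**Figure D2:**
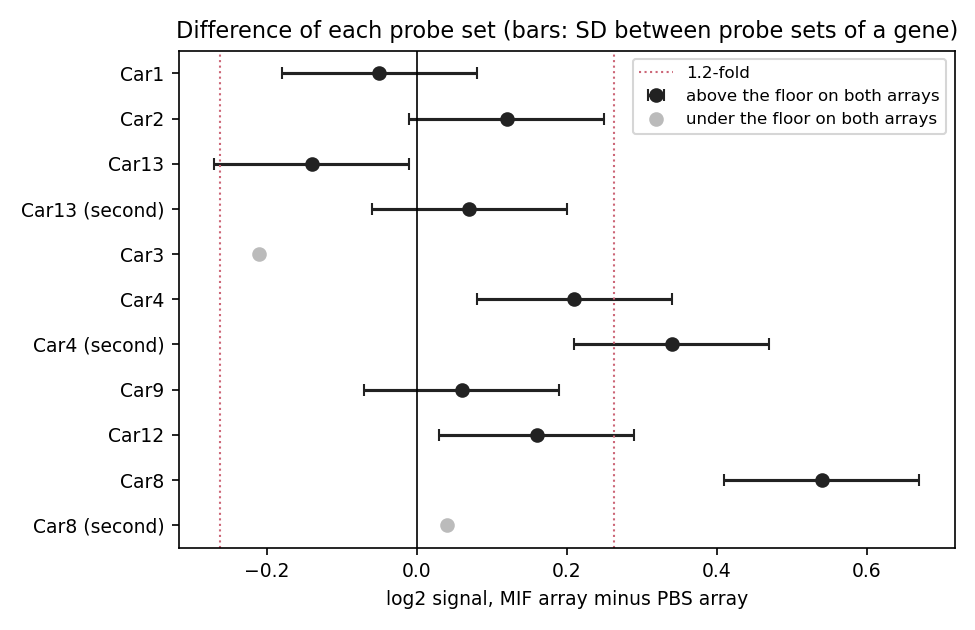
Difference of each probe set (log2 signal, MIF array minus PBS array), where bars show the SD of 0.13 between probe sets of a gene and dotted lines mark 1.2-fold. Car8 at 0.54 and one Car4 probe set at 0.34 lie past the line, and grey points, without bars, are under the floor on both arrays.

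**Figure D3:**
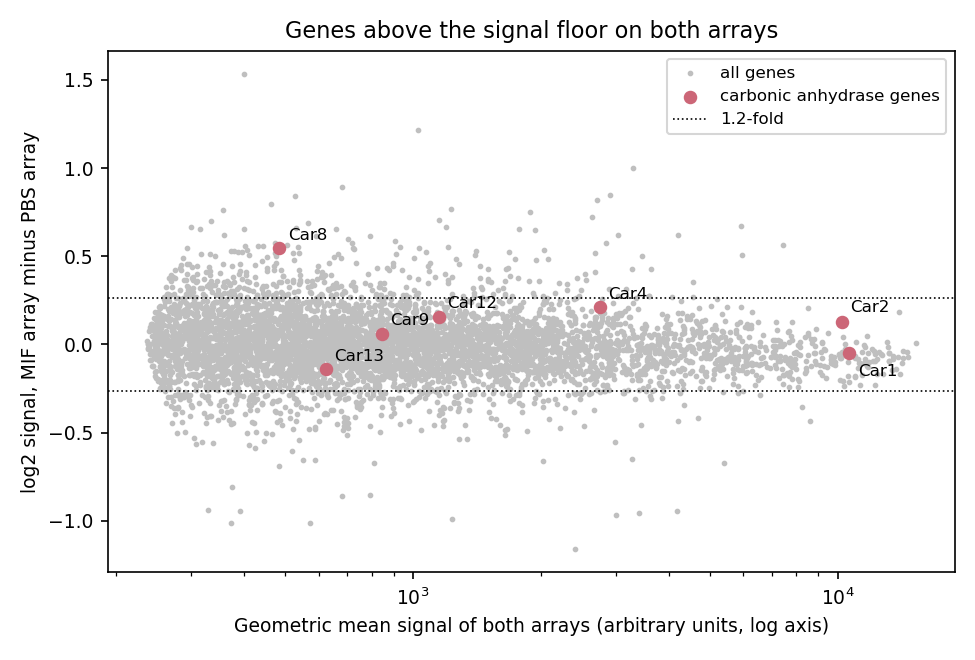
Log2 difference (MIF array minus PBS array) against the geometric mean signal of both arrays (arbitrary units, log axis) for the genes above the floor on both, with the 7 assessed carbonic anhydrases in red and 1.2-fold as dotted lines. Car8 lies above the upper line and the other 6 lie between the lines.

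The other genes of bicarbonate and proton handling were counted from lists of transporters, carboxylases, hypoxia targets and partner proteins. Of 34 listed transporters of bicarbonate, chloride, protons and short-chain fatty acids and their regulators, 15 were in the table and 12 were assessed. Of these, 1 was at least 1.2-fold higher on the MIF array and 0 were lower, against 6.82% and 6.29% of all assessed genes, and the median log2 difference was 0.06. Atp12a, the catalytic subunit of the colonic proton-potassium pump, was the one past 1.2-fold and went from 949 to 1506, 1.59-fold higher. The next largest differences were in Slc5a8, a sodium-coupled carrier of short-chain fatty acids, at 0.26 (3061 and 3668), and in Slc9a3r1, a scaffold of the sodium-proton exchanger NHE3, at -0.25 (3784 and 3190), whose other probe sets gave 0.02 and -0.06.

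Slc26a3, the apical exchanger that trades luminal chloride for bicarbonate, had log2 differences of 0.13 and 0.16 on its 2 probe sets. The sodium-bicarbonate cotransporter Slc4a4 had 3 probe sets that disagreed, at 0.07, -0.24 and -0.72. The last of these had signals of 780 with PBS and 474 with MIF. Cftr, the chloride and bicarbonate channel, was at 1251 and 1420, a difference of 0.18. Its other probe set was under the floor on both arrays (74.1 and 132).

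Carboxylases use bicarbonate, as do the carbamoyl phosphate synthetases Cad and Cps1, which the list of carboxylases also held with the biotin ligase Hlcs. Which carbonic anhydrases supply bicarbonate to the enzymes listed was not tested. Of 10 listed, 8 were in the table and 6 were assessed, with 5 higher on the MIF array, a median log2 difference of 0.17 and 1 at least 1.2-fold higher, where 46.7% of all assessed genes were higher and 6.82% at least 1.2-fold so. That gene was Pcx, the pyruvate carboxylase of gluconeogenesis, at 297 and 371 (1.25-fold), near the floor. Pccb, a subunit of propionyl-CoA carboxylase, differed by 0.19, and Cps1, which makes carbamoyl phosphate for the urea cycle, was at least 1.13-fold higher from a PBS signal under the floor.

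Car9 and Car12 are textbook targets of hypoxia-inducible factor, so the other targets of that factor were counted. Of 20 listed, 18 were in the table and 12 were assessed, 4 higher and 8 lower (6 and 6 with quantile normalization), with a median log2 difference of -0.01. At 1.2-fold 1 was higher and 1 lower, against 6.82% and 6.29% of all assessed genes. The kinase gene Pdk1, which restrains entry of pyruvate into mitochondria, was 1.31-fold higher, from 265 near the floor. Its other probe set was under the floor (195 and 216). Egln3, an oxygen-sensing hydroxylase, was 1.27-fold lower (338 and 267, near the floor), and its other probe set was under the floor (95.4 and 108). Hk2, the hexokinase of glycolysis, differed by -0.26. Of 6 listed partners of the members without catalytic activity, 2 were in the table, and Itpr3, an inositol trisphosphate receptor, was the one assessed, at 0.14.

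Car1 and Car4 are known from mature surface colonocytes. Of 24 other listed markers of these cells, 20 were assessed, 4 higher and 16 lower on the MIF array, with a median log2 difference of -0.10, where 46.7% of all assessed genes were higher. The 12 epithelial markers also had 2 higher and 10 lower, but 7 and 5 with quantile normalization and 9 and 3 with the loess trend removed. The 1386 genes of brightest signal, from 1660 up, had a median of -0.04. The colonocyte median was -0.03 with quantile normalization, where 8 were higher and 12 lower. Past 1.2-fold, 1 was higher (Aqp4, a water channel) and 3 were lower (Ms4a10, the bile acid transporter subunit Slc51a, and Tmigd1), against 6.82% and 6.29% of all assessed genes. Both probe sets of Car4 were higher on the MIF array, at 0.21 and 0.34, and the difference of Car1, -0.05, was within the SD between probe sets.

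Markers of other cells also differed between the arrays. The summed signal of the 10 fibroblast markers was 946 with PBS and 2312 with MIF, with 7 of the 10 under the floor on both. Dcn was 2.89-fold higher, from 235 near the floor. Col3a1 and Vim were under the floor with PBS, and were at least 2.39-fold and 1.09-fold higher. The 7 markers of T and NK cells in the table summed to 1726 and 940, with Gzma and Gzmb lower and the other 5 under the floor on both. Goblet cell markers summed to 56440 and 60243, with 8 of 9 higher and a median of 0.08, where 46.7% of all assessed genes were higher. The count was 5 of 9 with median centring and 9 of 9 with quantile normalization or the loess trend removed. The 9 enteroendocrine markers in the table summed to 4393 and 4448. Of the 5 assessed, the granin gene Chgb and the hormone gene Insl5 were 1.35-fold and 1.22-fold higher and Sct, for secretin, was 1.59-fold lower. The others, Pyy and Gcg, differed by -0.11 and 0.06. At 1.2-fold 2 were higher and 1 lower, against 6.82% and 6.29% of all assessed genes. In the smooth muscle, myeloid, and B and plasma cell lists, Mylk differed by -0.20, Cd14 by -0.01 and Xbp1 by 0.02 (-0.01 with median centring), Lyz2 was at least 1.05-fold higher, and no other gene was assessed. No tuft cell, endothelial, or enteric neuron and glia marker in the table was assessed. The part of these cell markers in the differences of Car4 and Car8 was not tested.

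**Figure D4:**
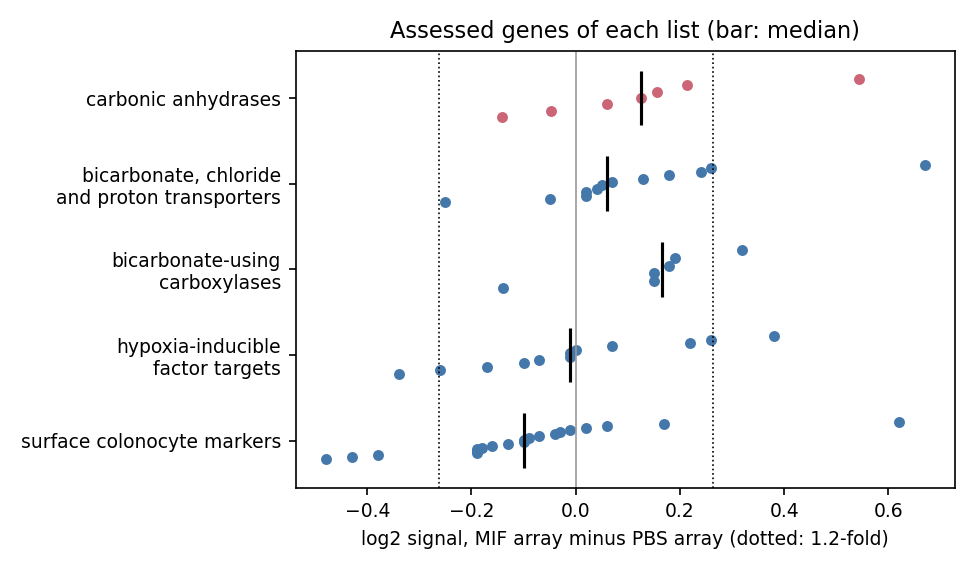
Log2 difference (MIF array minus PBS array) of the assessed genes of each list, 1 point per gene, with the median as a bar and 1.2-fold as dotted lines. The medians are 0.12 for the carbonic anhydrases, 0.06 for the transporters, 0.17 for the carboxylases, -0.01 for the hypoxia targets and -0.10 for the surface colonocyte markers.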

How the data were processed

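The deposited values are signal intensity per probe set on a linear scale, as read from the values. Probe summary, background correction and scaling by the authors are not stated in the labels or the table. Per the labels' protocols, RNA was extracted with Trizol and labelled as biotinylated cRNA by the Affymetrix protocol. After 61 control probe sets were left out, 14049 of the others had 1 gene symbol in GEO's platform annotation, which can be old, 490 had several and 740 had none. Symbols were updated through the gene identifier for 14034 of them (RefSeq, GRCm38.p6). Columns were used as deposited, since their medians differed by less than 0.1 on the log2 scale.

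The members and lists were chosen with earlier results of these data known. Named genes were all members, the 3 assessed genes of largest difference in each pathway list, any there past 1.5-fold, and marker genes where 3 or fewer lay above the floor. Slc26a3, Slc4a4, Cftr, Epcam, Cdh1, the globin genes, Fabp4, Acta1, Aqp4, Ms4a10, Slc51a, Tmigd1, Chgb, Insl5, Sct, Pyy and Gcg lie outside it, having been picked with their values in view. The steps that count genes were tested on simulated data with planted differences, which bears on the code and not on these arrays. Alternatives were median centring, quantile normalization, removal of a loess trend (span 0.3), floors at the 20th and 60th percentile or none, the mean of probe sets (after the floor), and a table without _x_at and _s_at probe sets. The tools were matplotlib 3.10.9, statsmodels 0.14.6, pandas 2.3.3 and numpy 2.4.6 under Python 3.11.15.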

Additional observations from a re-analysis of the deposited data

How the results depend on the processing

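The number of carbonic anhydrases at least 1.2-fold higher on the MIF array, 1 here, was 0 with the floor at the 60th percentile, which lies above the PBS signal of Car8. It was 2, Car4 and Car8, with the mean of probe sets, and also 2 with the mean of only those probe sets that both arrays placed above the floor, an alternative chosen after seeing the data. The counts of 0 lower at 1.2-fold and 0 in each direction at 1.5-fold were the same under the 9 alternatives. The median difference stayed between 0.09 and 0.18. Of 63 differences of single members under the alternatives, 61 moved by less than the SD between probe sets. The others were of Car8, at 0.23 with the floor at the 60th percentile and 0.27 with the mean of probe sets. That mean includes the dimmer Car8 probe set, raised to the floor on both arrays. With only probe sets above the floor it was 0.54. Many of the 61 could not move. The lower floor, no floor and leaving out _x_at and _s_at probe sets could not change the probe sets that represented the assessed members. The higher floor could change only Car8. Averaging could not change Car1, Car2, Car9 and Car12, which have a single probe set. Without a floor Car3 was assessed too, at -0.21. Over all genes, the 398 higher and 367 lower at 1.2-fold became 301 and 510 with median centring, which lowered the median of all genes to -0.05. The number of arrays, 1 per group, limits the precision. Nearness to the floor limits Car8, the dimmer Car13 probe set and Car3. No paired analysis was possible because each group has 1 array.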
